A study of Mus musculus with 4 samples.

Results

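Counts of 10 Notch genes were examined in left lung lobes at embryonic day 17 (E17). The genes were the receptors *Notch1*, *Notch2*, *Notch3* and *Notch4*, the ligands *Jag1*, *Jag2* and *Dll4*, and the target genes *Hes1*, *Hey1* and *Heyl*. They were taken by gene symbol, not by any measured value, though earlier results of these data were known. All 10 were found among the 45706 genes of the table. Lungs came from C57BL/6 mice, 2 wild type (hereafter *Myh10+/+*) and 2 homozygous for L458R (hereafter *Myh10-/-*), a leucine-to-arginine change in the motor domain of nonmuscle myosin heavy chain II-B, induced with the mutagen ENU. The paper names no treatment for the mice that were sequenced. The mutation was present in every cell of the embryo, and the lobes were sequenced whole, so cell types were not separated. The sources give no litter or sex for the embryos. Between 19116971 and 32055306 reads were counted on genes per lung, and *Xist* marked *Myh10+/+* lung 1 and *Myh10-/-* lung 2 as female and *Ddx3y* the other 2 lungs as male. Replicates are separate mice, and with 2 per genotype their number limits the precision.

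Notch receptors span the cell membrane and are switched on by Delta-like and Jagged ligands on a neighbouring cell. ADAM10 and then the gamma-secretase complex cut the bound receptor, and the freed intracellular part joins the DNA-binding protein RBPJ and a Mastermind coactivator to turn on *Hes* and *Hey* genes, which encode transcriptional repressors. In the lung, Notch signalling is known for setting secretory against ciliated and neuroendocrine fates in the airways, for sprouting and arterial identity in endothelium, and for the recruitment of pericytes and smooth muscle.

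3 promoters are shown for both kinds of DNA motif that were searched, and of these *Hes5* and *Hey2* are not among the genes examined above. RBPJ letters were searched as TTCCCAC, with GTGGGAA on the other strand, and a site of the HES and HEY repressors as CACGCG, with CGCGTG on the other strand, in the 250 bases before each RefSeq start site on GRCm38.p6 (copies of the second motif may overlap each other). *Hes5*, at chr4:154960673-154960922 (plus strand), and *Hey2*, at chr10:30842784-30843033 (minus strand), are Notch targets and hold RBPJ letters. *Dll4*, at chr2:119325534-119325783 (plus strand), is a ligand gene and holds the repressor letters. Capitals mark the matches, and each line is written 5′ to 3′ towards the start site.
Hes5: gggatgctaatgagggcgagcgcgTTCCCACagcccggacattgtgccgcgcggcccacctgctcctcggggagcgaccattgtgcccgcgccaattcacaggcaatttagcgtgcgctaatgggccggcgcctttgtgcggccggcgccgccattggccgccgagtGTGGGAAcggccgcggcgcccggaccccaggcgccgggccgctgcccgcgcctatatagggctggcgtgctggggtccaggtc
Hey2: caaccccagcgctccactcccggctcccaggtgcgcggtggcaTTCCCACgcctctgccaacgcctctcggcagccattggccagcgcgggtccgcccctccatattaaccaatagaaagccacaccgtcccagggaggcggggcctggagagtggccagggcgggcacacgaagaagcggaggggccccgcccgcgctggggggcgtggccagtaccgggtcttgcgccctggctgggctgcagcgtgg
Dll4: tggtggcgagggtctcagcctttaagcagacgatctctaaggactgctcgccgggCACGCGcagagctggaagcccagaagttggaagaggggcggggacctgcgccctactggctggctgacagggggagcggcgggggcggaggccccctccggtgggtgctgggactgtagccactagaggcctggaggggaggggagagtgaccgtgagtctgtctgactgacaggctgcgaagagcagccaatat

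RBPJ letters began at -226 and -83 in the *Hes5* promoter and at -207 in that of *Hey2*, with the base before the start site as -1. They occurred in 5.42% of all 32851 promoters of the reference table and in 0 of the 7 Notch genes examined that have one there (*Hes1*, *Hey1* and *Heyl* were not matched). CACGCG was found in 7.62% of all promoters and in those of *Dll4*, *Jag1* and *Notch2*. A match describes the letters of this window and is not a bound site.

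None of the 10 genes differed between genotypes at an adjusted p-value under 0.05 in edgeR (quasi-likelihood test, p-values adjusted by Benjamini-Hochberg across all 18763 genes tested). All 10 passed the minimum of a mean of 5 counts. Among all genes tested, 1.34% were lower and 0.298% higher in *Myh10-/-* lungs at this threshold (252 and 56 genes, or 233 and 111 with library totals in place of TMM scaling). The Wald test of DESeq2 also called 0 of the 10. At an unadjusted p-value under 0.05, 3 of the 10 genes (*Notch4*, *Jag2* and *Hes1*) were lower and 0 were higher, against 9.02% and 7.52% of all genes. In 4 of the 10 (these 3 and *Dll4*) both *Myh10-/-* lungs lay below both *Myh10+/+* lungs, and in 0 they lay above, against 24.3% and 23.9% of all genes. The median log2 fold change of *Myh10-/-* over *Myh10+/+* was -0.11 for the 10 genes and 0.00 for all genes tested. The 95% intervals of the 10 fold changes, each taken on its own, lay between 0.723 and 1.18, so larger changes in either direction were outside every interval. *Myh10* itself had 505 and 504 CPM (read counts scaled to a common library size, with TMM factors) in *Myh10+/+* lungs and 539 and 513 CPM in *Myh10-/-* lungs, and since L458R replaces a single amino acid this level does not check the genotype.

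**Figure D1:**
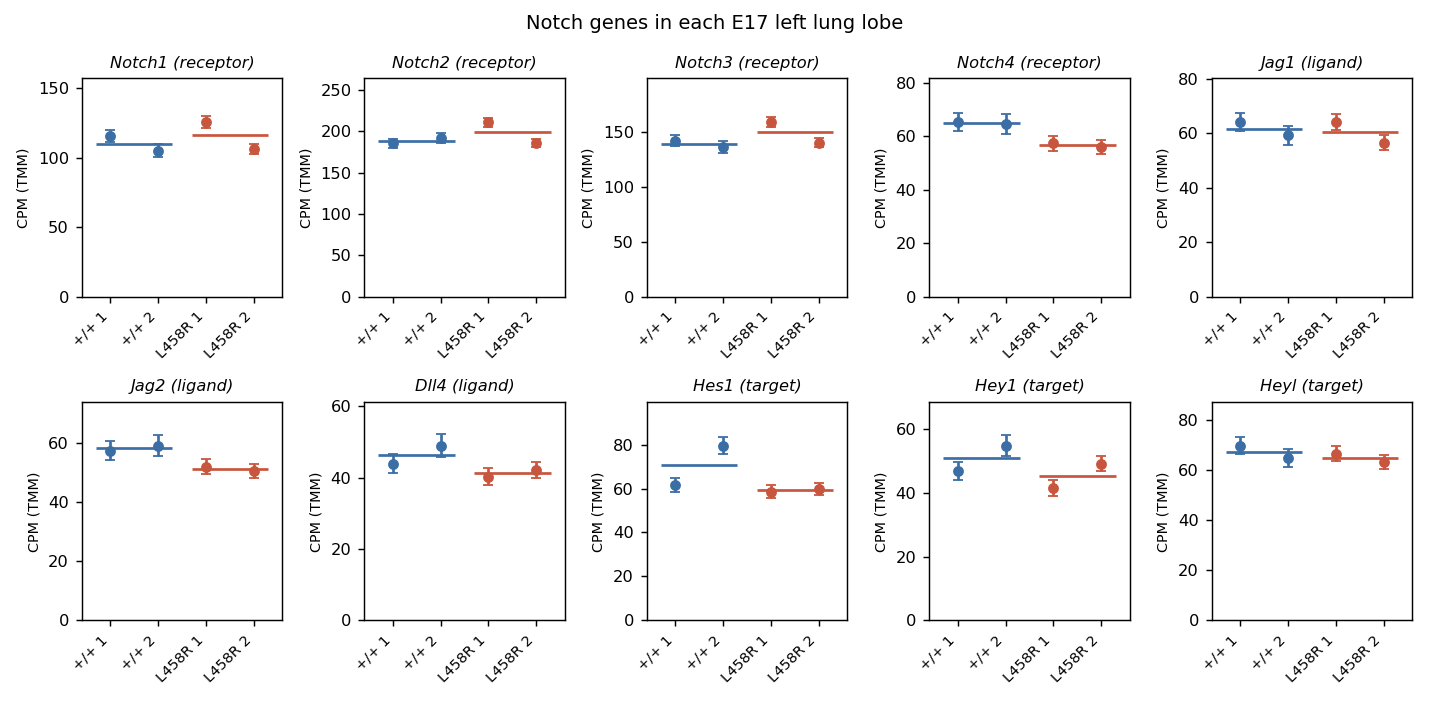
CPM of each Notch gene (y axis, from 0) in the 4 lungs (x axis), with *Myh10+/+* in blue and *Myh10-/-* (L458R) in red. Points are single lungs with their 95% Poisson counting interval and horizontal lines are genotype means. Only in *Notch4*, *Jag2*, *Dll4* and *Hes1* are both red points below both blue ones.

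*Notch1*, the receptor with broad use in fate decisions and in endothelium, lies on chromosome 2 from 26457903 to 26516663 (GRCm38). It had 115 and 105 CPM in *Myh10+/+* lungs and 126 and 107 CPM in *Myh10-/-* lungs. The genotypes overlapped, with *Myh10-/-* lung 1 the highest of the 4. Its log2 fold change was 0.07 (standard error, SE, 0.08, adjusted p = 0.684).

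*Notch2*, a main receptor of the airway epithelium (chromosome 3, 98013527 to 98150361), had 185 and 192 CPM in *Myh10+/+* lungs and 211 and 186 CPM in *Myh10-/-* lungs. *Myh10-/-* lung 1 was again the highest, and lung 2 lay between the wild-type values. The log2 fold change was 0.08 (SE 0.06, adjusted p = 0.568).

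*Notch3*, the receptor of pericytes and vascular smooth muscle (chromosome 17, 32120820 to 32166852), had 142 and 136 CPM in *Myh10+/+* lungs and 159 and 140 CPM in *Myh10-/-* lungs. Here too *Myh10-/-* lung 1 was above the other 3 lungs, which lay close together. The log2 fold change was 0.10 (SE 0.06, adjusted p = 0.432). Without *Myh10-/-* lung 2, the log2 fold changes of *Notch2* and *Notch3* were 0.16 (adjusted p = 0.0334) and 0.19 (adjusted p = 0.0331), a fit in which the lone lung is assumed to vary like the *Myh10+/+* lungs. Over the 11 alternatives with all 4 lungs, the adjusted p-value lay between 0.453 and 0.926 for *Notch2* and between 0.246 and 0.823 for *Notch3*. Without *Myh10-/-* lung 1, the log2 fold change was -0.049 for *Notch1* and -0.015 for *Notch2*, so 1 lung decided the sign of both. For *Notch3* it was then 0.014.

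*Notch4*, a receptor largely restricted to endothelium (chromosome 17, 34564268 to 34588503), had 65.4 and 64.6 CPM in *Myh10+/+* lungs and 57.4 and 56.1 CPM in *Myh10-/-* lungs. Replicates differed by 0.743 and 1.29 CPM, and the genotype means differed by -8.26 CPM, so the lungs of the genotypes were well separated. The log2 fold change was -0.20 (SE 0.07, 95% interval -0.35 to -0.05), with an unadjusted p of 0.0141 in edgeR. This was the lowest among these genes and did not pass after adjustment over all genes (adjusted p = 0.176, between 0.0877 and 0.368 over 11 alternatives). Leaving out any 1 lung gave values from -0.21 to -0.18. That *Notch4* differed in direction from the other receptors was not tested.

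Among the ligands, *Jag1* (chromosome 2, 137081456 to 137116644), which acts in airways and in the vessel wall, had 64.2 and 59.3 CPM in *Myh10+/+* lungs and 64.1 and 56.7 CPM in *Myh10-/-* lungs. The genotypes overlapped and the log2 fold change was -0.03 (SE 0.08, 95% interval -0.21 to 0.14, adjusted p = 0.882). Without *Myh10+/+* lung 1 it was 0.02 and without *Myh10-/-* lung 2 it was 0.054.

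*Jag2* (chromosome 12, 112907819 to 112929776), a ligand of airway epithelium and of endothelium, had 57.6 and 59.2 CPM in *Myh10+/+* lungs and 52.1 and 50.7 CPM in *Myh10-/-* lungs. Both *Myh10-/-* lungs were lower, by more than the replicates differed from each other. The log2 fold change was -0.18 (SE 0.07, 95% interval -0.34 to -0.03, unadjusted p = 0.0232), which did not pass after edgeR's adjustment (adjusted p = 0.217, between 0.135 and 0.468 over 11 alternatives).

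*Dll4* (chromosome 2, 119325784 to 119335962), the endothelial ligand that restrains sprouting, had 44.0 and 49.0 CPM in *Myh10+/+* lungs and 40.3 and 42.1 CPM in *Myh10-/-* lungs. The groups did not overlap, but *Myh10+/+* lung 1 lay nearer to the *Myh10-/-* lungs than to its replicate. Its log2 fold change was -0.17 (SE 0.08, adjusted p = 0.309), and -0.093 (adjusted p = 0.861) without *Myh10+/+* lung 2.

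Among the targets, *Hes1* (chromosome 16, 30064384 to 30067796), a repressor that holds back neuroendocrine fate, had 61.7 and 79.4 CPM in *Myh10+/+* lungs and 58.6 and 59.9 CPM in *Myh10-/-* lungs. *Myh10+/+* lung 2 stood above the other 3, and the counting interval of *Myh10+/+* lung 1 (58.5 to 65 CPM) overlapped that of *Myh10-/-* lung 2 (57.2 to 62.6 CPM). The log2 fold change was -0.25 (SE 0.10, 95% interval -0.47 to -0.03, adjusted p = 0.233), the largest in size of the 10. It was -0.06 without *Myh10+/+* lung 2 and -0.42 (adjusted p = 0.0229) without *Myh10+/+* lung 1, so its size rested on which wild-type lung was kept. With no filter on low counts the adjusted p was 0.0447, within a range of 0.0447 to 0.36 over 11 alternatives.

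*Hey1* (chromosome 3, 8663359 to 8667256), a repressor of endothelial and mesenchymal cells, had 46.7 and 54.6 CPM in *Myh10+/+* lungs and 41.4 and 49.0 CPM in *Myh10-/-* lungs. The genotypes overlapped, since *Myh10-/-* lung 2 was above *Myh10+/+* lung 1. The log2 fold change was -0.16 (SE 0.10, adjusted p = 0.443). It was -0.29 (adjusted p = 0.0385) without *Myh10-/-* lung 2 and -0.27 (adjusted p = 0.22) without *Myh10+/+* lung 1, but -0.044 (adjusted p = 0.924) without *Myh10-/-* lung 1 and -0.048 (adjusted p = 0.945) without *Myh10+/+* lung 2, so its size rested on single lungs of both genotypes. Over the 11 alternatives with all 4 lungs the adjusted p lay between 0.259 and 0.782.

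*Heyl* (chromosome 4, 123233556 to 123249875), a target linked to *Notch3* in mural cells, had 69.5 and 64.6 CPM in *Myh10+/+* lungs and 66.3 and 63.0 CPM in *Myh10-/-* lungs. The values interleaved, and the log2 fold change was -0.05 (SE 0.07, adjusted p = 0.762).

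Fold changes moved with exon length across genes with a mean of at least 5 CPM. In the class of genes with exons from 70 to 2113 bp, which holds *Hes1* (2037 bp), the median log2 fold change was -0.06, and in the class from 9486 to 123179 bp, which holds *Notch1* (14232 bp) and *Notch2* (10782 bp), it was 0.05. Between the *Myh10-/-* lungs, the median log2 ratio of lung 1 to lung 2 ran from -0.09 in the shortest class to 0.08 in the longest, while for *Notch1*, *Notch2* and *Notch3* it was 0.24, 0.18 and 0.18. With an offset for exon length, chosen after the data had been seen, the log2 fold change of *Notch1* was 0.02, that of *Notch2* 0.04 and that of *Notch3* 0.08, while *Notch4* had -0.22 (adjusted p = 0.0897, within the range given above) and *Hes1* -0.23 (adjusted p = 0.196). The offset called 0 of the 10 genes. The part of exon length in these differences was not tested beyond this.

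**Figure D2:**
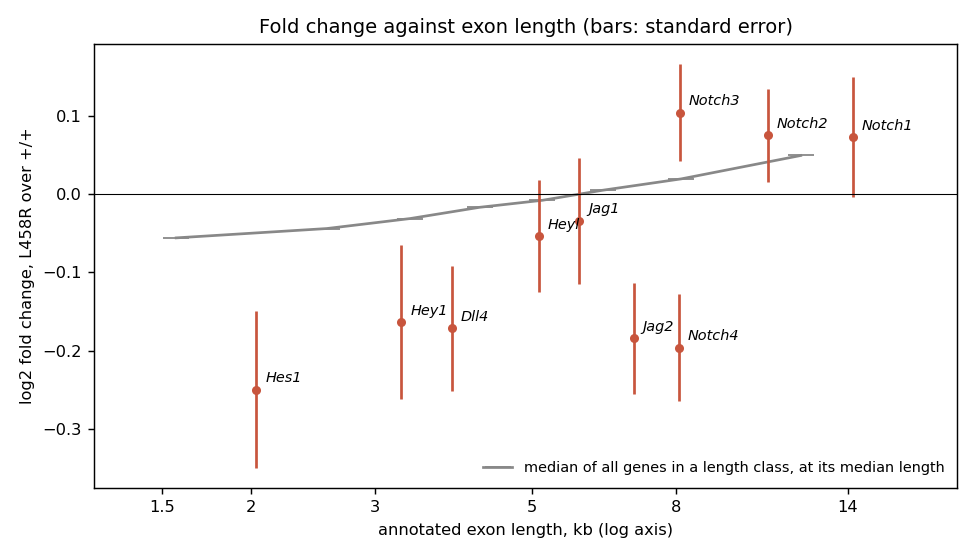
Log2 fold change of *Myh10-/-* (L458R) over *Myh10+/+* (y axis) against annotated exon length in kb (log x axis) for the 10 Notch genes, with standard errors. The grey line joins the medians of all genes with a mean of at least 5 CPM in 8 length classes and runs from -0.06 to 0.05; *Notch1*, *Notch2* and *Notch3* lie above it and the other 7 genes below it.

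Levels between genes were compared per kb of annotated exon over the 4 lungs. *Hes1* had the highest level, with a median of 29.8 CPM per kb (28.8 to 39.0), and its lowest lung was above the highest lung of *Notch2*. *Notch2* (17.5, from 17.2 to 19.6 CPM per kb) and *Notch3* (17.5, from 16.9 to 19.7 CPM per kb) were not separated from each other. *Hey1* followed with 14.7 CPM per kb, then *Heyl* with 12.8, *Dll4* with 11.2 and *Jag1* with 10.6 CPM per kb, and in this run each gene overlapped the next. *Jag2* with 7.88, *Notch1* with 7.80 and *Notch4* with 7.57 CPM per kb were the lowest and overlapped one another. Per kb, *Hes1* was above 91.2% of the genes tested and *Notch4* above 61.9%. Annotated exons include those of rare transcripts, and per kb of the longest coding transcript *Hey1* moved from rank 4 to 2 and *Notch1* from rank 9 to 6, while *Hes1* stayed first and *Notch4* last.

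**Figure D3:**
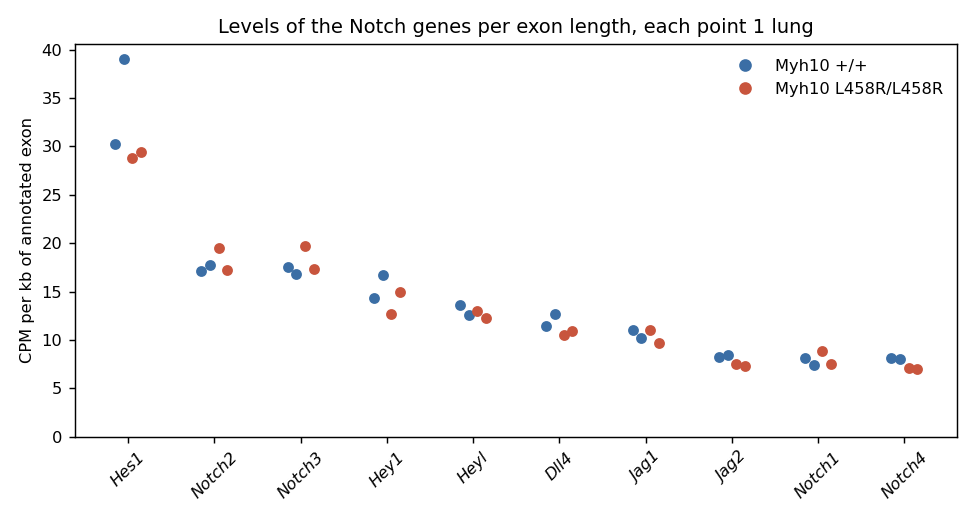
CPM per kb of annotated exon (y axis, from 0) for the 10 Notch genes in order of their median (x axis); each point is 1 lung, blue for *Myh10+/+* and red for *Myh10-/-* (L458R/L458R). *Hes1* stands above the rest, at 28.8 to 39.0 CPM per kb.

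A wider list of 45 genes of the pathway was read from the same fit. Of the 44 that could be tested, 1 was lower in *Myh10-/-* lungs at an adjusted p-value under 0.05 and 0 were higher, and 3 were lower and 0 higher at an unadjusted p-value under 0.05. The lower counts lay near the shares among all genes, 1.34% at the adjusted threshold and 9.02% at the unadjusted one. Among all genes 0.298% and 7.52% were higher at these thresholds, against 0 genes of the list. The median log2 fold change of the list was -0.01. The gene that passed was *Dlk2*, which encodes a Delta-like protein without the usual Notch-activating domain (chromosome 17, 46297421 to 46303271). *Dlk2* had 11.7 and 11.2 CPM in *Myh10+/+* lungs and 6.65 and 8.04 CPM in *Myh10-/-* lungs. Both *Myh10-/-* lungs were clearly lower, and the log2 fold change was -0.64 (SE 0.12, adjusted p = 0.0264). It also passed in the 11 alternatives with all 4 lungs (adjusted p from 1.41e-05 to 0.0431), and without *Myh10+/+* lung 1 it did not (-0.61, adjusted p = 0.0643).

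The other 2 genes with an unadjusted p-value under 0.05 were ligand genes as well. *Dlk1*, an imprinted Delta-like gene of fetal tissue, had 660 and 654 CPM in *Myh10+/+* lungs and 588 and 566 CPM in *Myh10-/-* lungs (log2 fold change -0.19, adjusted p = 0.174). *Dll1*, a canonical ligand named here after its values were seen, had 9.77 and 9.66 CPM in *Myh10+/+* lungs and 7.40 and 7.61 CPM in *Myh10-/-* lungs (log2 fold change -0.37, adjusted p = 0.128). For both genes the genotypes did not overlap, and neither passed edgeR's adjusted threshold. With no filter on low counts *Dlk1* did pass (adjusted p = 0.0343, the lowest of 11 alternatives with all 4 lungs, of which the highest was 0.215).

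In the other roles, the gene with the lowest unadjusted p-value was named. *Furin*, the convertase that cuts Notch receptors on their way to the membrane, had a log2 fold change of -0.10 (adjusted p = 0.339), and *Mib1*, the ubiquitin ligase for ligand uptake, one of 0.05 (adjusted p = 0.665). *Aph1a*, a subunit of gamma-secretase, had -0.12 (adjusted p = 0.478), *Maml1*, a Mastermind coactivator, -0.13 (adjusted p = 0.408) and *L3mbtl3*, an RBPJ corepressor, -0.07 (adjusted p = 0.687). For *Egfl7*, a secreted endothelial factor that can bind Notch receptors, it was -0.09 (adjusted p = 0.459). Within the 6 groups these genes stand for, 0 of 36 genes tested passed, and 0 had an unadjusted p-value under 0.05. Among all genes tested, 9.02% were lower and 7.52% higher at that unadjusted threshold.

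Of the other target genes, *Hey2*, an arterial repressor with RBPJ letters in the promoter shown above, had 8.86 and 9.50 CPM in *Myh10+/+* lungs and 8.01 and 7.95 CPM in *Myh10-/-* lungs (log2 fold change -0.20, adjusted p = 0.418). *Nrarp*, a target that damps Notch signalling, had 6.24 and 5.41 CPM in *Myh10+/+* lungs and 5.53 and 6.68 CPM in *Myh10-/-* lungs (log2 fold change 0.07, adjusted p = 0.877). *Hes7* had between 0.349 and 0.840 CPM. *Hes5*, with RBPJ letters at both places marked above, had 3 counts in *Myh10+/+* lung 2 and 0 in the other 3 lungs, at or under the 0.0932 to 0.157 CPM that 3 counts make in these lungs, so no fold change is given.

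**Figure D4:**
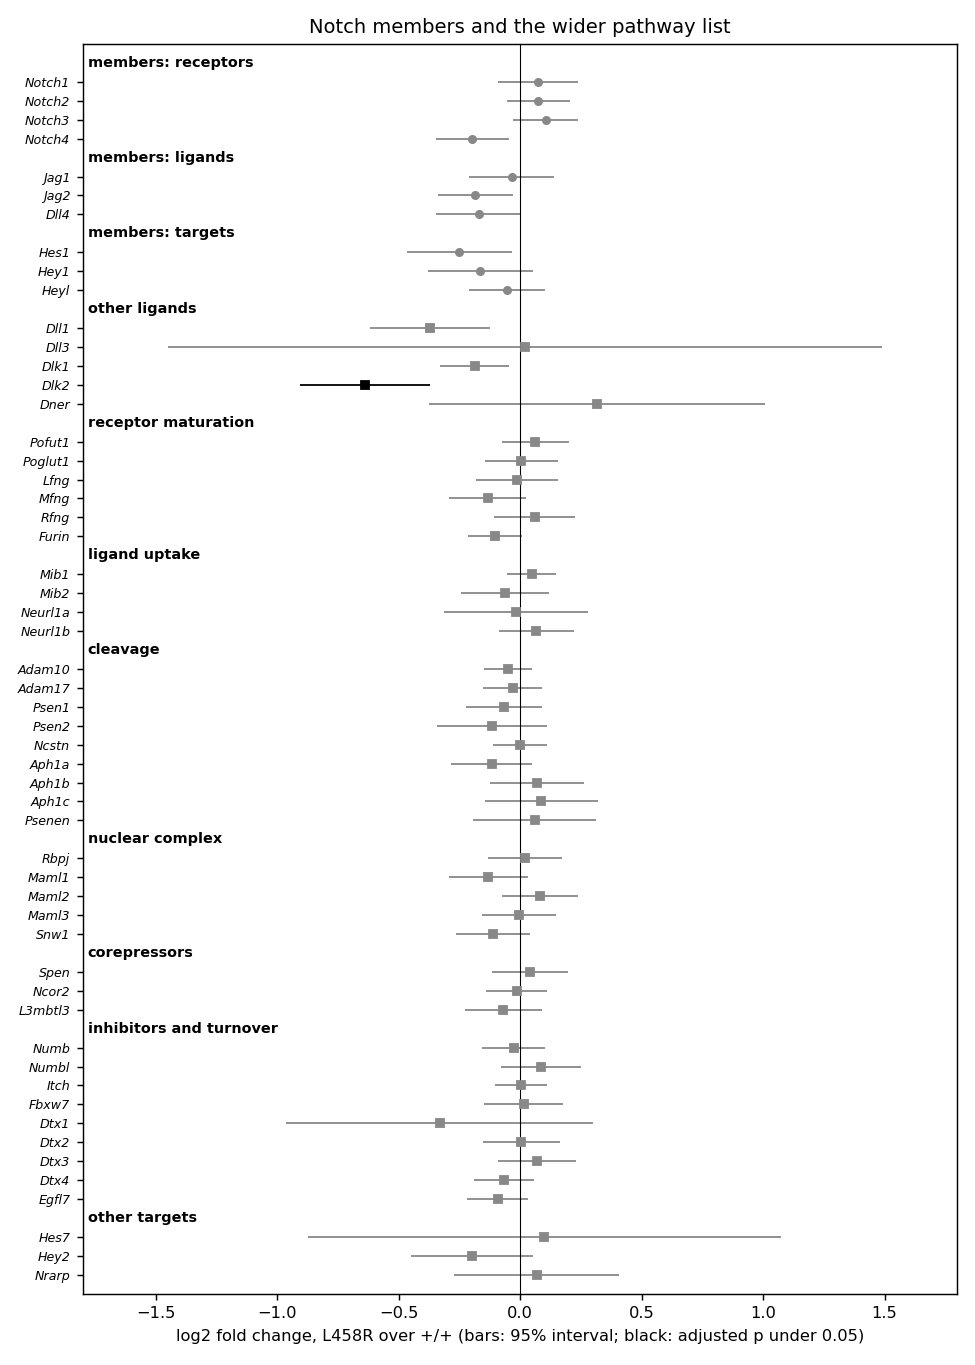
Log2 fold change of *Myh10-/-* (L458R) over *Myh10+/+* (x axis) with its 95% interval for the 10 Notch genes (circles) and 44 further pathway genes (squares), grouped by role (y axis). Black marks an adjusted p-value under 0.05, which *Dlk2* alone reached, at -0.64; wide bars belong to genes with few counts.

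Cell type markers moved in these lungs too. In bulk tissue, fewer cells of a type and less RNA per cell cannot be told apart. By staining, the paper found no altered numbers of endothelial cells or of NG2-positive pericyte-like cells in mutant lungs. The stage is not given in its main text. For the endothelium, the summed level of 8 markers was 1764 and 1727 CPM in *Myh10+/+* lungs and 1621 and 1581 CPM in *Myh10-/-* lungs, 5 of the 8 were lower at an unadjusted p-value under 0.05 (9.02% of all genes were), 0 passed edgeR's adjusted threshold, and their median log2 fold change was -0.13. *Pecam1*, an adhesion receptor of endothelial cells, had -0.15 and *Cdh5*, the cadherin of endothelial junctions, had -0.09. As a percentage of that summed level, *Notch4* was 3.71% and 3.74% in *Myh10+/+* lungs and 3.54% and 3.55% in *Myh10-/-* lungs. For *Dll4* this was 2.49% and 2.84% against 2.49% and 2.66%, and for *Jag2* 3.27% and 3.43% against 3.22% and 3.20%. For *Hey1* it was 2.65% and 3.16% against 2.55% and 3.10%. Relative to the endothelial markers, *Notch4* and *Jag2* were thus still lower in both *Myh10-/-* lungs, by less than in CPM, while *Dll4* and *Hey1* overlapped. The part of endothelial content in these values was not tested.

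Arterial markers (5 genes) summed to 308 and 318 CPM in *Myh10+/+* lungs and 296 and 289 CPM in *Myh10-/-* lungs, and 0 passed. *Gja5* and *Gja4*, both gap junction genes, had log2 fold changes of -0.06 and -0.33 (adjusted p = 0.727 and 0.113). Pericyte markers (7 genes) summed to 475 and 472 CPM against 428 and 432 CPM, with 0 passing, 4 lower at an unadjusted p-value under 0.05 (against the same 9.02%) and a median log2 fold change of -0.22. *Pdgfrb*, the pericyte receptor for PDGF-B, had -0.10 and *Cspg4*, the gene of NG2, had -0.07. *Notch3* was 30.0% and 28.9% of the pericyte sum in *Myh10+/+* lungs and 37.2% and 32.5% in *Myh10-/-* lungs, so the groups did not overlap on that scale. Its CPM overlapped between genotypes, and the difference on that scale therefore includes the lower pericyte markers. *Heyl* was 14.7% and 13.7% against 15.5% and 14.6%, which overlapped. Smooth muscle markers (6 genes) had a median log2 fold change of -0.08 and 0 passed, with -0.12 for *Acta2* and -0.09 for *Myh11*, both of the contractile apparatus.

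The airway cells whose balance Notch is known to set were also represented. In the paper, numbers of club and ciliated cells did not seem significantly changed in mutants. Of the 3 club cell markers, 2 were lower at an adjusted p-value under 0.05, against 1.34% of all genes. These were *Scgb1a1*, a secretoglobin (log2 fold change -1.36), and *Cyp2f2*, a cytochrome P450 (log2 fold change -0.46). *Scgb1a1* had 52.9 and 58.6 CPM in *Myh10+/+* lungs and 15.1 and 28.2 CPM in *Myh10-/-* lungs. *Scgb3a2* had -0.36 (adjusted p = 0.147). None of the 5 ciliated cell markers passed (median log2 fold change -0.27), though 4 were lower at an unadjusted p-value under 0.05, against 9.02% of all genes. The other, *Ccdc39*, had a log2 fold change of 0.09, with both *Myh10-/-* lungs above both *Myh10+/+* lungs. Neuroendocrine markers were sparse, with 0.144 to 4.99 CPM per lung, and 0 of 5 passed. *Calca*, which encodes the peptide CGRP, had a log2 fold change of -0.20 with a 95% interval from -0.58 to 0.19.

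Across all marker lists, 18 of 73 genes tested were lower at an adjusted p-value under 0.05 and 0 were higher, against 1.34% and 0.298% of all genes. The lists were chosen with earlier results of these data known, so this contrast is a description and not a test. Apart from the club cell genes, the 18 held *Cdh1* and *Krt8* of the epithelium and the alveolar type 1 genes *Pdpn*, *Ager*, *Hopx* and *Aqp5*. They also held the alveolar type 2 genes *Sftpb*, *Abca3* and *Lamp3*, the mesothelial gene *Msln* and the cardiac muscle genes *Myh6*, *Myl7*, *Tnnt2* and *Ryr2*. The last were the erythroid gene *Alas2* and *Lyz2* of the leukocyte list, in which the other 3 genes did not pass. Without the club cell genes, the log2 fold changes ran from -1.23 for *Aqp5* to -0.26 for *Abca3*. Cardiac muscle markers (6 genes, of which *Nppa* was too sparse to test) summed to 211 and 261 CPM in *Myh10+/+* lungs and 167 and 154 CPM in *Myh10-/-* lungs. By the paper's account, mutant lungs had more alveolar type 2 cells and higher levels of *Sftpa*, *Sftpc* and *Abca3*. It also described a marked decrease of the type 1 markers HOPX, PDPN and RAGE and of LAMP3. Here *Sftpc* had a log2 fold change of -0.41 and did not pass. The direction thus differed from the paper for *Sftpc* and *Abca3*, and the stage of those measurements is not given in the main text. No marker of the lists was at 0 in all lungs. *Myh10+/+* lung 2, the highest for *Hes1*, also had the highest sum in 10 of the 15 marker lists, and the part of these cell types in the *Hes1* value was not tested.

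**Figure D5:**
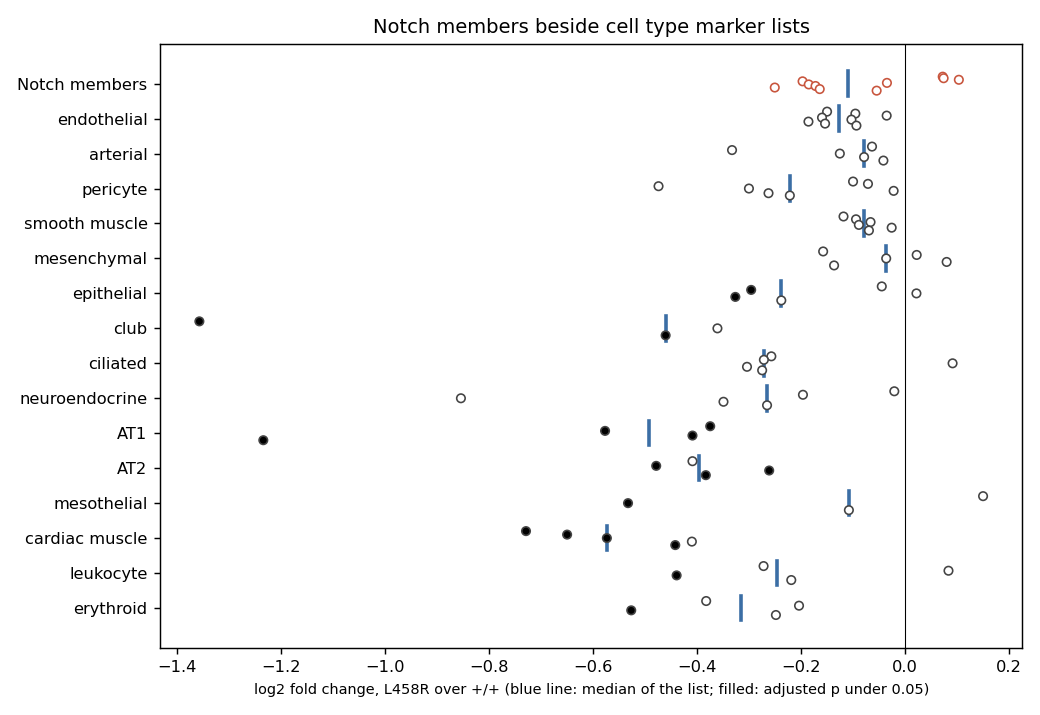
Log2 fold change of *Myh10-/-* (L458R) over *Myh10+/+* (x axis) for each of the 10 Notch genes (red outline) and of 15 cell type marker lists (y axis); each circle is 1 gene, filled where the adjusted p-value was under 0.05, and blue lines are medians. The Notch genes, with a median of -0.11, hold no filled circle and spread to both sides of 0.

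*Notch4*, the gene of the 10 with the lowest unadjusted p-value, was also compared with every other tested gene of at least 10 CPM by the Euclidean distance between their log2(CPM + 0.5), centred on the mean of the 4 lungs. The nearest were *Ppp1r13b*, which encodes a p53-binding protein (distance 0.0138), *Dpyd*, of pyrimidine breakdown (0.0176), and the ligand gene *Dlk1* (0.0181). With 4 lungs, and the 10 genes themselves left out of the search, such a likeness describes these libraries alone. *Ppp1r13b* had 101 and 99.3 CPM in *Myh10+/+* lungs and 89.1 and 87.2 CPM in *Myh10-/-* lungs, the same order of lungs as *Notch4*.

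Exons of some of these genes overlap other genes, where counting can lose or share reads. Genes on the opposite strand overlap 1389 bp of the exons of *Notch1*, 488 bp of *Notch3*, 214 bp of *Dll4*, 867 bp of *Dll1*, 51 bp of *Dlk2*, 2051 bp of *Nrarp* and 433 bp of *Hes5*, and a gene on the same strand overlaps 541 bp of *Notch2*. No source gives the strand setting of the counting, so the counts of these genes are uncertain to that extent. *Notch4*, *Jag1*, *Jag2*, *Hes1*, *Hey1* and *Heyl* had no exon overlap in GENCODE M21.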

How the data were processed

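Stranded mRNA libraries of E17 left lung lobes were sequenced as single-end reads. The authors deposited whole-number counts, 1 value per Ensembl gene and lung, without normalization. Per the submitters' processing notes and the paper, trimmed reads were aligned to mm10 (GRCm38) with STAR 2.4.0a and counted over exons with featureCounts 1.5.1, without reads that hit more than 1 gene or region. The strand setting is not given in the sources used here.

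Here, counts were scaled by TMM and the genotypes compared in edgeR 4.0.16 (quasi-likelihood test, R 4.3.3) for the 18763 genes that averaged 5 counts or more, adjusted by Benjamini-Hochberg over all of them. The test was also run on simulated counts, and the outcome of that run is not reported here. Standard errors and 95% intervals come from that fit, and Poisson intervals cover counting error only. Replicate lungs differed by more than counting error (chi-square per degree of freedom 7.47 for *Myh10+/+* and 12.6 for *Myh10-/-* lungs). These values include X and Y genes, and the replicates of each genotype were of opposite sex. Exon lengths, positions and overlaps come from GENCODE M21 (GRCm38), and promoters from RefSeq (GRCm38.p6). The genes and lists were chosen with earlier results of these data known. Named genes were the 10 Notch genes, *Myh10*, pathway and marker genes past an adjusted p of 0.05, the other targets, the pathway gene with the lowest p in each role, the first 2 markers of 6 lists (1 marker is not reported here), and the 3 genes most like the Notch gene with the lowest p. Alternatives were other scalings, filters, robust estimation, DESeq2 1.42.0, replicate blocks, an exon length offset, leaving out genes on X, Y and MT, and leaving out each lung.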

Additional observations from a re-analysis of the deposited data

How the results depend on the processing

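Of the 308 genes called, the number was 1162 with no filter on low counts, 474 with robust estimation and 611 with the exon length offset, and 191 to 1826 with each lung left out in turn (191 without *Myh10+/+* lung 2 and 1826 without *Myh10-/-* lung 2, fits in which 1 lung stands for a genotype); the cause was not tested. Of the 10 Notch genes, 1 was called with no filter and 0 to 3 with a lung left out, and of the wider pathway list 2 (*Dlk2* and *Dlk1*) with no filter and 0 to 1 with a lung left out. The other alternatives with all 4 lungs gave 0 Notch genes and 1 pathway gene. With each lung left out, the sign turned for *Notch1* (-0.049 to 0.19), *Notch2* (-0.015 to 0.16), *Jag1* (-0.12 to 0.054) and *Heyl* (-0.11 to 0.00096). Lungs with the same number shared only that number and were of opposite sex: their deviations had a correlation of -0.346 across genes (0.0311 without X and Y genes). The replicate block called 710 genes, and 1100 with the length offset, and in both 0 Notch genes and 1 pathway gene. Blocking by crossed numbers, which pairs lungs of the same sex and was added after the data had been seen like the length offset, called 415 genes, 0 Notch genes and 1 pathway gene.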
